A study of Mus musculus with 12 samples.

Results

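Ppp1r1b, Rcan2, Ptk2b, Lsp1, Cryab, Smpdl3b, Osbpl5, Vamp5, Prss35 and Smim3 are 10 of the 17536 genes measured by RNA-seq in chondrocytes of the superficial zone (SFZ) and the deep zone (DZ) of mouse articular cartilage. They were picked on their values in the DZ libraries, as genes whose R3-Cntl and R3-cKO libraries lay close together within each genotype and apart from the other genotype. For Rcan2, Prss35 and Lsp1, however, the wider genotype spanned more than the gap between the genotypes. In the DZ, 5 of the 10 genes were lower in R3-cKO (Ppp1r1b, Smpdl3b, Prss35, Lsp1 and Smim3) and 5 were higher (Rcan2, Vamp5, Ptk2b, Cryab and Osbpl5). Because the DZ values chose the genes, those values are given as a description with no test, and only the SFZ libraries, which the choice did not use, carry a test of genotype.

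R3-Cntl mice are Runx3 fl/fl, and R3-cKO mice are Col2a1-Cre; Runx3 fl/fl, so the control mice also carry the floxed Runx3 alleles and differ by the absence of the Cre recombinase. The mice were 5 days old and of the C57BL/6 strain in the sample labels (C57BL/6J in the study). The study describes 3 individual mice of each genotype as littermates. Cells were released from the ends of the femur and tibia by successive enzyme digestions, the SFZ cells first and the DZ cells from the remaining tissue, and were grown as monolayers, with 3 libraries for each of the 4 groups of genotype and zone. The Cre is driven by Col2a1, so recombination is expected only in cells that have used this promoter, and cultured cells can drift from their state in the tissue.

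Runx proteins bind DNA together with Cbfb and switch genes on or off in developing cartilage, bone and blood. Deep zone chondrocytes make a matrix rich in type II collagen and aggrecan, while superficial cells are flatter, closer to fibroblasts and make lubricin. The 10 genes have varied functions. Ppp1r1b, Rcan2 and Ptk2b act in calcium, cyclic AMP and kinase signalling. Lsp1 and Cryab act on the cytoskeleton and on protein folding. Smpdl3b, Osbpl5 and Vamp5 act at membranes, Prss35 is secreted, and the function of Smim3 is unknown.

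The unit of the values was inferred to be FPKM, the fragments mapped to a gene scaled to its length and to the size of the library. Runx3, the targeted gene, measured 12.7, 12.7 and 7.66 FPKM for R3-Cntl DZ libraries 1, 2 and 3 versus 15.95, 12.7 and 8.14 FPKM for the libraries labelled R3-cKO. In the SFZ it measured 10.7, 5.98 and 6.65 FPKM for R3-Cntl versus 11.8, 9.07 and 3.42 FPKM for the libraries labelled R3-cKO. Runx3 was thus higher in DZ numbers 1 and 3 and nearly equal in number 2, and in the SFZ it was higher in numbers 1 and 2 and lower in number 3. All directions below are those of the libraries labelled R3-cKO. The table holds 1 value per gene and none per exon. The log2 fold change of Runx3 was 0.13 (standard error 0.28) in the DZ and -0.04 (0.43) in the SFZ, neither with an unadjusted p under 0.05. Runx1, Runx2 and the partner Cbfb also had no call in either zone (1 higher in the DZ under the replicate block), with DZ values of 1.73, 2.15 and 3.37 against 3.12, 2.97 and 5.82 FPKM for Runx1, 6.49, 6.81 and 8.85 against 10.3, 9.21 and 8.38 FPKM for Runx2 and 41.4, 52.1 and 49.95 against 42.3, 46.6 and 34.7 FPKM for Cbfb.

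The libraries also differed in Y-linked transcripts. Ddx3y measured 16.99, 7.5 and 6.92 FPKM for R3-Cntl DZ libraries versus 12.7, 0 and 0 FPKM for the libraries labelled R3-cKO, and in the SFZ 15.4, 4.96 and 21.1 against 10.7, 0.02 and 0.01 FPKM. Eif2s3y, Kdm5d and Uty had the same pattern (0 of these 4 called in the DZ, and 4 lower with the replicate number as a block). All 6 R3-Cntl libraries and both libraries of number 1 labelled R3-cKO thus held Y-linked RNA, and the other 4 held almost none, so that outside number 1 the sex of the cells and the genotype cannot be told apart. The difference within the DZ pair of number 1 is therefore given for each gene, although its direction was fixed by the choice of genes whose DZ groups do not overlap.

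In each zone, limma compared the genotypes on log2(FPKM + 1) over genes reaching 1 FPKM in 3 or more of the 6 libraries. On this scale, genes near 1 FPKM show less change than their ratio. In the DZ, 0 of 11091 genes (0%) had an adjusted p under 0.05, and 127 lower genes (1.15%) and 277 higher genes (2.5%) had an unadjusted p under 0.05. These 404 genes became 1830 when the replicate number was a block, 552 lower (4.98%) and 1278 higher (11.5%), or 16.5% of all genes, against which the blocked counts of the lists below should be read. The 2 genotypes did not overlap for 308 DZ genes that were lower (2.78%) and 583 that were higher (5.26%) in the libraries labelled R3-cKO, and all 10 genes described here are among these 891, as the choice required. In the SFZ, 0 of 11537 genes (0%) had an adjusted p under 0.05, and 13 lower (0.113%) and 21 higher genes (0.182%) had an unadjusted p under 0.05. These 34 became 1204 with R3-cKO SFZ library 2 left out and 12 with R3-cKO SFZ library 3 left out, and the 404 DZ genes became 773 without R3-cKO DZ library 3 and 211 without R3-cKO DZ library 2. The SFZ genotypes did not overlap for 110 lower (0.953%) and 167 higher genes (1.45%), and none of the 10 was among them.

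**Figure D1:**
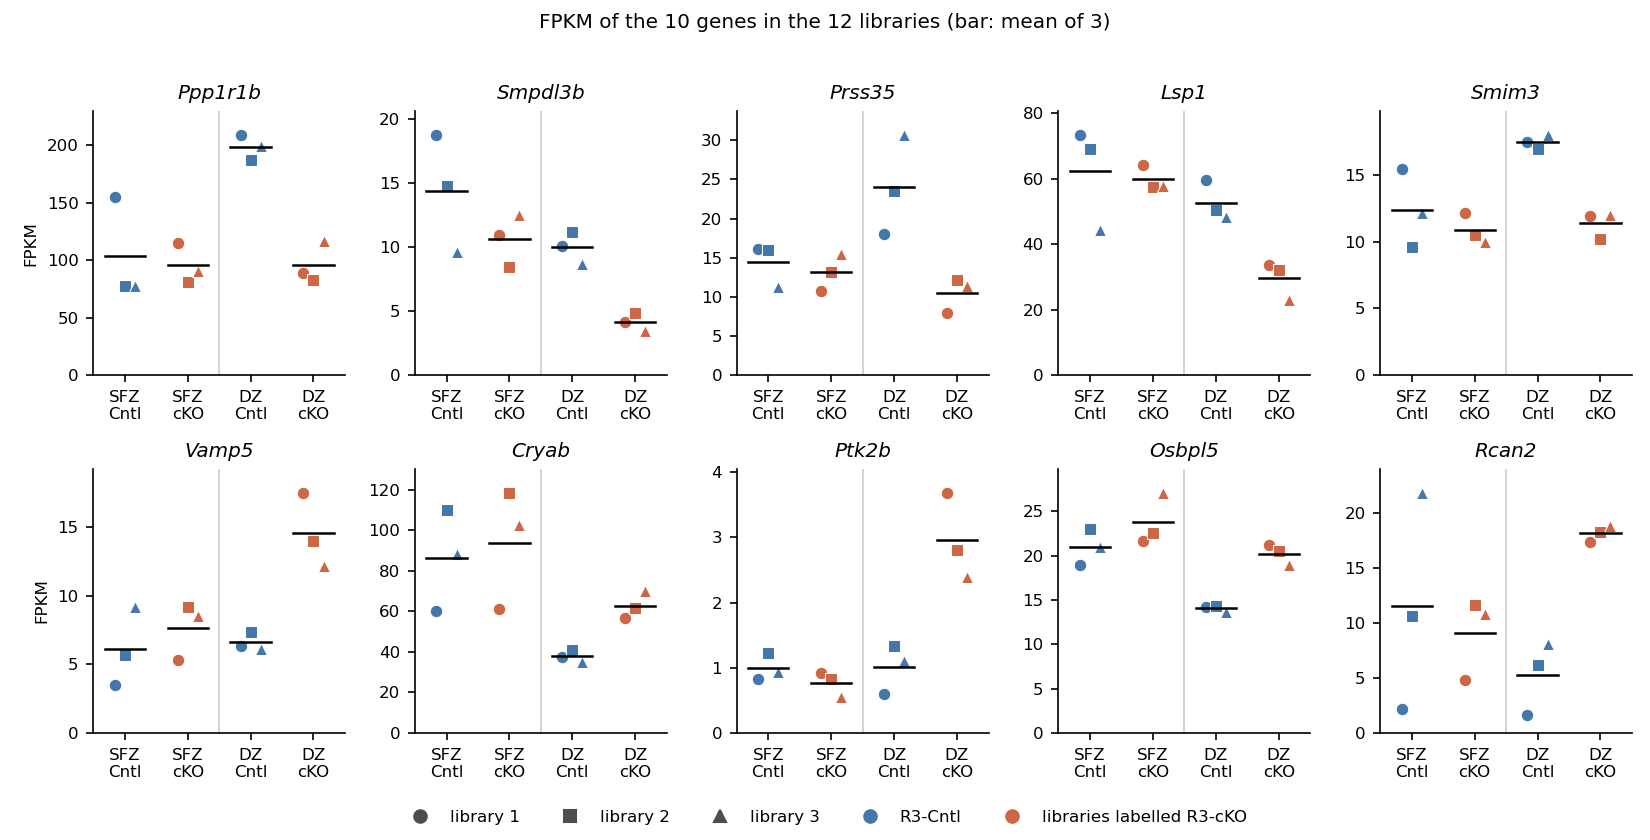
FPKM of the 10 genes in each of the 12 libraries (circles, squares and triangles are libraries 1, 2 and 3, and bars are means of 3). The upper 5 genes were lower and the lower 5 higher in the DZ libraries labelled R3-cKO with no overlap, whereas the SFZ groups overlapped for all 10; each vertical axis starts at 0.

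Ppp1r1b encodes DARPP-32, which inhibits protein phosphatase 1 once it has been phosphorylated by the cyclic AMP-dependent kinase and is best known from neurons that receive dopamine. By the mean of each group it was the most abundant of the 10 genes, although Cryab exceeded it in SFZ libraries 2 and 3 of each genotype. Ppp1r1b is on chromosome 11 (98209718 to 98219110, forward strand of mm9). In the DZ it measured 209, 188 and 199.6 FPKM for R3-Cntl libraries 1, 2 and 3 (199 ± 10.7, mean ± SD, n = 3) versus 88.7, 82.8 and 117 FPKM (96.1 ± 18.1) for the libraries labelled R3-cKO. The lowest R3-Cntl library was 1.61 times the highest library labelled R3-cKO. R3-Cntl exceeded R3-cKO 2.36, 2.27 and 1.71 times within pairs 1, 2 and 3. In the SFZ it measured 155, 77.9 and 77.2 FPKM for R3-Cntl versus 115, 80.8 and 90.7 FPKM for the libraries labelled R3-cKO. Here library 1 was the highest of each genotype, and the other 4 libraries lay between 77.2 and 90.7 FPKM. The noncoding gene 1700003D09Rik lies within the same stretch on the opposite strand, and since it is not stated whether reads kept their strand, its reads cannot be told apart from those of Ppp1r1b.

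Of the other genes for protein phosphatase 1 and its inhibitors, 11 passed the DZ filter and 0 had an unadjusted p under 0.05 in either zone (1 higher in the DZ under the replicate block). Their median DZ log2 fold change was 0.12, beside 0.05 over all genes tested. The catalytic subunit Ppp1ca measured 152, 184 and 130 FPKM for R3-Cntl DZ libraries versus 177, 213 and 148 FPKM for those labelled R3-cKO. The closest relatives of DARPP-32, Ppp1r1a and Ppp1r1c, did not pass the filter in the DZ.

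Rcan2 encodes an inhibitor of calcineurin, the calcium-activated phosphatase that sends NFAT proteins to the nucleus. It lies on chromosome 17 (43938800 to 44176465, forward strand of mm9). Its DZ values were 1.6, 6.18 and 8.13 FPKM (5.303 ± 3.35, n = 3) in R3-Cntl versus 17.4, 18.3 and 18.8 FPKM (18.2 ± 0.711) for the libraries labelled R3-cKO. This was the widest gap of any of the 891 genes, yet only the libraries labelled R3-cKO were tight, while R3-Cntl library 1 was far below libraries 2 and 3. The ratios within pairs were accordingly 10.9, 2.96 and 2.31, and without R3-Cntl library 1 the DZ difference was 1.24 instead of 1.79 on the log2(FPKM + 1) scale. SFZ libraries measured 2.16, 10.7 and 21.8 FPKM for R3-Cntl versus 4.81, 11.6 and 10.8 FPKM for those labelled R3-cKO, and library 1 was again the lowest of each genotype. A copy of the noncoding RNA 7SK is annotated on the opposite strand within Rcan2.

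Rcan1, a relative, was also higher without overlap, by 0.19 on the log2 scale, and measured 8.09, 9.32 and 9.64 FPKM for R3-Cntl DZ libraries versus 9.75, 10.8 and 10.7 FPKM for those labelled R3-cKO. Rcan3, whose groups overlapped, measured 4.27, 4.94 and 6.38 against 5.73, 5.48 and 5.73 FPKM. The calcineurin subunit Ppp3ca, the most abundant gene of the list, measured 66.96, 82.5 and 78.5 against 78.1, 74.9 and 77.5 FPKM. Among 12 tested DZ genes for calcineurin, other RCAN proteins and NFAT, 0 had an unadjusted p under 0.05, against 1 lower and 1 higher under the replicate block, and the median log2 fold change was 0.03.

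Ptk2b encodes PYK2, a tyrosine kinase related to focal adhesion kinase that responds to calcium, integrins and chemokine receptors. Its position is on chromosome 14 (66772094 to 66899889, reverse strand of mm9). It was the least abundant of the 10 genes, at 0.6, 1.33 and 1.1 FPKM for R3-Cntl DZ libraries (1.01 ± 0.373, n = 3) versus 3.68, 2.81 and 2.4 FPKM for the libraries labelled R3-cKO (2.96 ± 0.654). The log2 difference of 0.98 depends on the pseudocount at this level, and was 0.4 with a pseudocount of 5 and 1.51 with 0.1. The pair ratios of 6.13, 2.11 and 2.18 differed mainly through the R3-Cntl library 1 value of 0.60 FPKM. In the SFZ the values were 0.83, 1.22 and 0.93 FPKM for R3-Cntl versus 0.92, 0.83 and 0.56 FPKM for the libraries labelled R3-cKO. Ptk2b failed the SFZ filter and was therefore not tested there by limma.

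Focal adhesion kinase itself, Ptk2, had near-equal DZ values of 15.03, 18.6 and 18.03 FPKM for R3-Cntl versus 16.9, 18.9 and 17.7 FPKM for the libraries labelled R3-cKO. Of 19 tested genes for focal adhesions other than Ptk2b, 2 had an unadjusted p under 0.05 in the DZ, both higher, and the count was 7 with the replicate number as a block. They were Vcl, which encodes vinculin (11.7, 26.9 and 25.3 against 38.4, 64.5 and 31.99 FPKM, log2 fold change 1.06), and Zyx, which encodes zyxin (49.1, 50.8 and 36.6 against 77.3, 79.7 and 50.3 FPKM, 0.58). Neither passed adjustment (limma adjusted p = 0.999 for each). The median of this list was 0.22 in the DZ and -0.05 in the SFZ, where 0 genes had an unadjusted p under 0.05.

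Lsp1 encodes an actin-binding protein best known from leukocytes, where it shapes cell migration. It lies near the end of chromosome 7 (149646714 to 149680772, forward strand of mm9) and overlaps the predicted gene Gm14492 on the other strand. DZ values were 59.5, 50.5 and 48.3 FPKM for R3-Cntl (52.8 ± 5.98, n = 3) versus 33.7, 32.3 and 22.9 FPKM for the libraries labelled R3-cKO (29.6 ± 5.85). The libraries labelled R3-cKO spanned 0.54 on the log2 scale, about as much as the gap of 0.5 to R3-Cntl, and the pair ratios of R3-Cntl over R3-cKO were 1.77, 1.57 and 2.103. In the SFZ, Lsp1 measured 73.4, 69.3 and 44.4 FPKM for R3-Cntl versus 64.4, 57.5 and 57.8 FPKM for the libraries labelled R3-cKO. Library 3 of R3-Cntl was the lowest there and the other 5 lay between 57.5 and 73.4 FPKM.

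Since Lsp1 is best known from leukocytes, leukocyte markers are given beside it. The 20 markers summed to 13.9, 11.2 and 33.8 FPKM for R3-Cntl DZ libraries and to 9.3, 6.5 and 6.0 FPKM for those labelled R3-cKO. Of 3 tested, 1 was called and 2 were lower under the replicate block. Lyz2 was the most abundant (5.65, 4.69 and 16.2 against 4.36, 2 and 2.69 FPKM, log2 fold change -1.15, unadjusted p = 0.0379 and adjusted p = 0.999 in limma), and 11 of the 20 were under 1 FPKM in every DZ library. Ptprc, which encodes the common leukocyte antigen CD45, did not exceed 0.08 FPKM in the DZ. In the SFZ the marker sum was 250.5, 203.6 and 9.6 FPKM for R3-Cntl and 204.7, 20 and 92.3 FPKM for the libraries labelled R3-cKO. Lsp1 varied less than this sum, but its order over the 6 SFZ libraries was that of the sum except for 1 swap of neighbouring libraries. The DZ sums were lower without overlap in the libraries labelled R3-cKO, as Lsp1 was. Within R3-Cntl, DZ library 3 had the highest sum (33.8 FPKM) but the lowest Lsp1 value (48.3 FPKM). Within R3-cKO, the DZ order of Lsp1 was that of the sum. The part of leukocytes in the Lsp1 values was not tested. Fewer cells of a type and less RNA per cell cannot be told apart in these bulk libraries. Of 4 other tested DZ genes for actin-binding proteins of leukocytes, 0 had an unadjusted p under 0.05, against 2 higher under the replicate block. The most abundant, Arpc1b, measured 79.9, 97.2 and 73.8 against 126, 136 and 75.3 FPKM.

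Cryab encodes alpha B-crystallin, a small heat shock protein that keeps unfolded proteins and intermediate filaments from aggregating. It lies on chromosome 9 (50560863 to 50564738, forward strand of mm9), 404 bp from Hspb2, which is transcribed in the opposite direction. In the DZ it measured 37.7, 40.97 and 35.2 FPKM for R3-Cntl (37.96 ± 2.89, n = 3) versus 56.6, 61.7 and 70.1 FPKM for the libraries labelled R3-cKO (62.8 ± 6.84). The pair ratios of R3-cKO over R3-Cntl were 1.501, 1.51 and 1.99. SFZ libraries ranged more widely, at 60.2, 110 and 88.3 FPKM for R3-Cntl versus 60.95, 118 and 102 FPKM for those labelled R3-cKO. Library 1 was the lowest of each genotype in the SFZ, and every SFZ ratio by number was slightly above 1 in R3-cKO over R3-Cntl, at 1.01, 1.08 and 1.16. Across all genes, 709 SFZ genes (6.15%) had all 3 ratios by number higher and 693 (6.01%) all 3 lower, against 2955 (26.6%) and 1485 (13.4%) in the DZ.

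The divergent neighbour Hspb2 was low, at 0.28, 0.78 and 1.47 FPKM for R3-Cntl DZ libraries versus 1.16, 0.9 and 2.08 FPKM for those labelled R3-cKO, and its groups overlapped. Among 14 tested DZ genes for small heat shock proteins and their partners other than Cryab, 2 had an unadjusted p under 0.05, both higher, with 6 under the replicate block. Hspb1, which encodes the 27-kDa-class small heat shock protein, measured 10.1, 10.9 and 19.8 against 21.6, 19.1 and 22.04 FPKM (log2 fold change 0.64, standard error 0.25). Bag3, which encodes a co-chaperone of this class, measured 34, 34.8 and 32.8 against 43.9, 39.4 and 39.5 FPKM (0.27, 0.11). The limma adjusted p was 0.999 for both, and the list's median was 0.28 in the DZ and 0.06 in the SFZ.

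Smpdl3b encodes a lipid-anchored phosphodiesterase at the cell surface, related to acid sphingomyelinase, that affects membrane lipids and innate immune signalling. The gene is on chromosome 4 (132288881 to 132313167, reverse strand of mm9). In the DZ it measured 10.03, 11.2 and 8.66 FPKM for R3-Cntl (9.96 ± 1.26, n = 3) versus 4.17, 4.88 and 3.4 FPKM for the libraries labelled R3-cKO (4.15 ± 0.7402). The pair ratios of R3-Cntl over R3-cKO, 2.41, 2.29 and 2.55, were the most even among the genes that differed over 2-fold within every pair. The log2 difference was -1.09, and -0.71 with a pseudocount of 5. In the SFZ the values were 18.7, 14.7 and 9.56 FPKM for R3-Cntl versus 10.9, 8.45 and 12.5 FPKM for the libraries labelled R3-cKO. By number, libraries 1 and 2 went the same way as in the DZ and library 3 the other way.

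The sequence before the start of Smpdl3b is shown because its level differed by genotype in the DZ and the targeted factor recognises short DNA words. Runx proteins bind TGTGGT or TGTGGC and also TGCGGT or TGCGGC. These 4 words were looked for on both strands in the 250 bases before each start site listed by RefSeq (build GRCm38.p6), and each window was then matched exactly to mm9. Of the 10 genes, Smpdl3b, Vamp5, Osbpl5, Prss35 and Rcan2 have windows in that table, 9 in all, and Ppp1r1b, Cryab, Lsp1, Ptk2b and Smim3 do not. At least 1 word was held by 4 of the 9 windows, and by 12467 of all 32851 windows of this length (38%). A match describes the letters only. The Smpdl3b sequence lies on the reverse strand at chr4:132313168-132313336 of mm9, stops 81 bases before the RefSeq start where an annotated exon begins, and holds TGCGGT 117 to 122 bases before the start, in capitals.
Smpdl3b: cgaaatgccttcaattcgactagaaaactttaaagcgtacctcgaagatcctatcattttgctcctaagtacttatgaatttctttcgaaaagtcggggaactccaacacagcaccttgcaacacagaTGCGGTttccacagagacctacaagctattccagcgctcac

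The relative Smpdl3a was higher within each DZ pair and measured 13.7, 9.14 and 21.6 FPKM for R3-Cntl DZ libraries versus 19.97, 11.5 and 23.4 FPKM for those labelled R3-cKO, with overlap. Of 17 tested DZ genes for sphingomyelinases and ceramide enzymes other than Smpdl3b, 0 had an unadjusted p under 0.05, against 1 lower and 3 higher under the replicate block. The most abundant of them in the DZ was Smpd3, the neutral sphingomyelinase of bone and cartilage, with 69.6, 86.04 and 171 against 49.4, 52.6 and 130.4 FPKM. It was lower within each DZ pair, as Smpdl3b was, but its groups overlapped.

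Osbpl5 encodes ORP5, a protein anchored in the endoplasmic reticulum that exchanges phosphatidylserine for a phosphoinositide at contacts with the plasma membrane. It lies on the reverse strand of chromosome 7 (150874667 to 150942890 of mm9), 1.19 Mb from Lsp1. These 2 genes differed in opposite directions in the DZ, on which they were picked. In the DZ it measured 14.2, 14.4 and 13.6 FPKM for R3-Cntl (14.1 ± 0.406, n = 3) versus 21.2, 20.5 and 18.9 FPKM for the libraries labelled R3-cKO (20.2 ± 1.18). The difference was the smallest of the 10 on the log2 scale (0.49), but the R3-Cntl libraries varied little, and the pair ratios of 1.49, 1.43 and 1.39 were nearly equal. SFZ values were 18.99, 23.04 and 21.02 FPKM for R3-Cntl versus 21.7, 22.6 and 27.1 FPKM for the libraries labelled R3-cKO, close to the DZ level of the latter. None of 10 other tested DZ genes of the oxysterol-binding protein family had an unadjusted p under 0.05 (0 in the SFZ as well), and the most abundant, Osbpl9, measured 57.02, 56.9 and 54.1 against 63.6, 51.8 and 53.9 FPKM.

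Of the 3 RefSeq start sites of Osbpl5, the first and second have Runx words in the window before them, all on the strand opposite to the gene, so that they appear reverse-complemented. The first window, at chr7:150942914-150943163 of mm9 and outside any annotated gene, holds TGTGGT 244 to 249 and TGTGGC 137 to 142 bases before the start. The second, at chr7:150927869-150928118 within an intron of Osbpl5, holds TGTGGT 160 to 165 bases before the start. Both are on the reverse strand, with the words in capitals.
Osbpl5 first start: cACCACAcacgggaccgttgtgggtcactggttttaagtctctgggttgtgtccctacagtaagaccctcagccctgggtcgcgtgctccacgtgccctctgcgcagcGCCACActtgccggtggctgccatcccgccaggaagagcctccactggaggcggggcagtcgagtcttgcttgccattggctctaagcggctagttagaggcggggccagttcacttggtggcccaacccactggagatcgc
Osbpl5 second start: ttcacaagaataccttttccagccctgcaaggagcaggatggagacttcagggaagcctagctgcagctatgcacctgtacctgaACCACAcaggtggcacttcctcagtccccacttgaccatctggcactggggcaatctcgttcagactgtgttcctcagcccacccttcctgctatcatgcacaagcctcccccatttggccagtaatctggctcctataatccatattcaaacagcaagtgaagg

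Vamp5 encodes a vesicle SNARE protein first described in muscle, where it accompanies the formation of muscle cells. Its position is on chromosome 6 (72318043 to 72330462, reverse strand of mm9), 4755 bp from its relative Vamp8. In the DZ it measured 6.31, 7.36 and 6.14 FPKM for R3-Cntl (6.603 ± 0.661, n = 3) versus 17.5, 13.96 and 12.2 FPKM for the libraries labelled R3-cKO (14.5 ± 2.69). The pair ratios were 2.77, 1.897 and 1.98, highest in pair 1. In the SFZ it measured 3.51, 5.64 and 9.2 FPKM for R3-Cntl versus 5.3, 9.13 and 8.51 FPKM for the libraries labelled R3-cKO. Vamp8, next to it, had DZ values of 81.6, 73.6 and 47.9 against 89.9, 72.9 and 61.1 FPKM, and 0 of 19 tested DZ genes for other VAMP proteins and their partner SNAREs had an unadjusted p under 0.05 (median log2 fold change 0.01). The window before the Vamp5 start, on the reverse strand at chr6:72330463-72330712 of mm9 and outside any annotated gene, holds TGTGGC 116 to 121 bases before the start, in capitals.
Vamp5: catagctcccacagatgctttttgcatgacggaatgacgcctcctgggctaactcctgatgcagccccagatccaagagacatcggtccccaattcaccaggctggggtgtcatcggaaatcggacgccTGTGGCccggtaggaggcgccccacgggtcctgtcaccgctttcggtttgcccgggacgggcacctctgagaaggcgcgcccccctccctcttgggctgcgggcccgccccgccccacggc

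Prss35 encodes a secreted protein of the trypsin-like serine protease family that is thought to lack protease activity. It lies on chromosome 9 (86636434 to 86650680, forward strand of mm9). DZ values were 18.1, 23.5 and 30.6 FPKM for R3-Cntl (24.1 ± 6.3, n = 3) versus 7.88, 12.1 and 11.4 FPKM for the libraries labelled R3-cKO (10.5 ± 2.28). Both groups were wide, and the pairs differed by 2.29, 1.94 and 2.69 times. SFZ libraries measured 16.2, 15.95 and 11.3 FPKM for R3-Cntl versus 10.8, 13.1 and 15.4 FPKM for those labelled R3-cKO. Its closest relative Prss23 went the other way, at 7.96, 39.8 and 39.4 FPKM for R3-Cntl DZ libraries versus 51.3, 91.96 and 50.6 FPKM for those labelled R3-cKO, with no overlap (1.36 on the log2 scale, standard error 0.61, unadjusted p = 0.0643 in limma). Of 5 tested DZ genes for PRSS and HTRA proteases other than Prss35, with Prss23 among them, 1 had an unadjusted p under 0.05. Under the replicate block, 1 was lower and 1 higher. The gene called without the block was Htra3, a secreted protease that binds TGF-beta family ligands (16.4, 31.3 and 18.1 against 9.65, 11.4 and 6.02 FPKM, log2 fold change -1.18, limma adjusted p = 0.999), which was lower like Prss35.

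Smim3 encodes a small membrane protein of unknown function. It measured 17.5, 16.9 and 17.96 FPKM for R3-Cntl DZ libraries (17.5 ± 0.515, n = 3) versus 11.9, 10.2 and 11.98 FPKM for those labelled R3-cKO (11.4 ± 1.01). Its R3-Cntl libraries were among the tightest of the 10 genes, and the pair ratios of R3-Cntl over R3-cKO were 1.46, 1.66 and 1.499. In the SFZ it measured 15.4, 9.59 and 12.2 FPKM for R3-Cntl versus 12.1, 10.5 and 9.95 FPKM for the libraries labelled R3-cKO, where library 1 was the highest of each genotype.

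**Figure D2:**
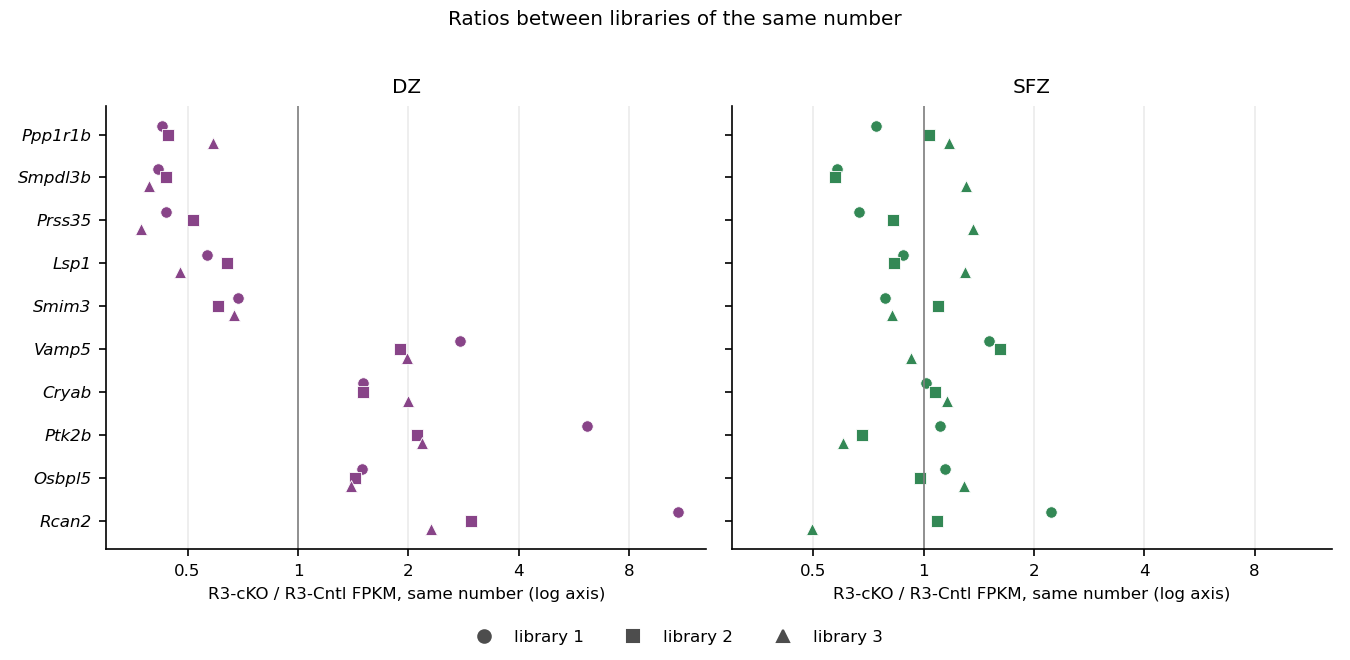
Ratio of R3-cKO to R3-Cntl within each number for each gene, on a log axis, in the DZ (left) and the SFZ (right). DZ ratios all lie on the side on which the gene was picked, with pair 1 far out for Rcan2 (10.9) and Ptk2b (6.13), whereas SFZ ratios lie on both sides of 1; the DZ side was fixed by the choice.

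Pair by pair, the DZ ratios taken in each gene's own direction had a median of 2.33 in pair 1, 1.92 in pair 2 and 2.05 in pair 3. They ranged from 1.46 (Smim3) to 10.9 (Rcan2) in pair 1, from 1.43 (Osbpl5) to 2.96 (Rcan2) in pair 2 and from 1.39 (Osbpl5) to 2.69 (Prss35) in pair 3. The direction in every DZ pair follows from the choice of genes without overlap, and only the size could vary. In pair 1, where both libraries held Y-linked RNA, the difference, an alternative chosen after seeing the data, was -1.23 for Ppp1r1b, -1.09 for Smpdl3b, -1.1 for Prss35, -0.8 for Lsp1 and -0.51 for Smim3. For the genes that were higher it was 2.82 for Rcan2, 1.55 for Ptk2b, 1.34 for Vamp5, 0.57 for Cryab and 0.55 for Osbpl5.

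The SFZ ratios differed between numbers. For number 1 all 10 genes lay on their DZ side, with a median ratio of 1.31 and a range from 1.01 (Cryab) to 2.23 (Rcan2). For number 2, 6 genes did (median 1.08), and Ppp1r1b, Ptk2b, Osbpl5 and Smim3 did not. For number 3, 3 genes did (median 0.810), namely Cryab, Osbpl5 and Smim3. SFZ libraries of numbers 2 and 3 did not deviate together by number, so the SFZ ratios for these numbers compare libraries that share a number only and are not pairs. The share of all genes on their DZ side is not given for any number. For number 1, SFZ and DZ libraries deviated together from their group means (r = 0.58 for R3-Cntl and 0.42 for R3-cKO). The SFZ ratios of number 1 may thus repeat the DZ values that chose the genes.

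In the SFZ, 9 of the 10 genes passed the filter and 0 had an unadjusted p under 0.05, the limma adjusted p being 1 for each. The log2 fold changes were -0.37 (standard error 0.26) for Smpdl3b, -0.16 (0.18) for Smim3, -0.13 (0.19) for Prss35, -0.05 (0.31) for Ppp1r1b and -0.03 (0.21) for Lsp1. They were 0.33 (0.34) for Vamp5, 0.17 (0.13) for Osbpl5, 0.11 (0.32) for Cryab and 0.01 (0.74) for Rcan2. Exact two-sided permutation tests gave p = 0.3 for Smpdl3b, Osbpl5 and Ptk2b, 0.5 for Prss35, 0.6 for Smim3, 0.7 for Vamp5 and Cryab, 0.9 for Rcan2 and 1 for Ppp1r1b and Lsp1, and cannot give less than 0.1 with 3 libraries against 3. When single libraries were left out, Smpdl3b ranged from -0.17 (standard error 0.24, without R3-Cntl library 1) to -0.62 (0.21, without R3-Cntl library 3), the only value with an unadjusted p under 0.05. Without R3-Cntl library 3 the groups of Smpdl3b, Prss35 and Lsp1 no longer overlapped, and without library 2 those of Osbpl5 and Smim3, all in the DZ direction. Without R3-Cntl library 1, Ppp1r1b was higher and the untested Ptk2b lower without overlap, both against the DZ direction. Groups separate more easily with a library left out, and the share of all genes that did so is not given, so these separations are a description only. R3-Cntl library 3 had the lowest leukocyte sum, whose part was not tested. With standard errors this wide for Rcan2, Vamp5, Cryab and Ppp1r1b, the absence of a call does not show that SFZ levels were equal. Whether the genotype effect differs between zones was not tested, because the DZ side of such a test was used to pick the genes.

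All 9 tested genes had the same sign in the SFZ as in the DZ, while Ptk2b had the opposite sign (-0.17 against 0.98). For Rcan2 the SFZ sign rested on a difference of 0.01, which became -0.07 with a pseudocount of 5. Its mean SFZ FPKM was lower in the libraries labelled R3-cKO (9.08) than in R3-Cntl (11.5). The median size of the change over the 9 tested genes was 0.13 in the SFZ, beside 1.02 in the DZ, where the values chose the genes. It was 0.07 and 0.29 over 860 other genes with separated DZ groups, and 0.08 and 0.12 over all genes tested in both zones. Over all 10953 genes tested in both zones 45.6% shared their sign, and over 860 other genes with separated DZ groups 57.1% did. The sign of Ppp1r1b, Lsp1, Cryab, Smim3 and Rcan2 in the SFZ rested on single libraries and turned, or came to 0.00, when R3-Cntl SFZ library 1 was left out (0.28 for Ppp1r1b, 0.11 for Lsp1, -0.12 for Cryab, 0.00 for Smim3 and -0.77 for Rcan2). Prss35 came to 0.00 without R3-cKO SFZ library 1 and Vamp5 to 0.04 without R3-Cntl SFZ library 1, while Osbpl5 came down to 0.07 (standard error 0.12) without R3-cKO SFZ library 3. SFZ and DZ libraries may come from the same mice, in which case the zones are not independent and the shared signs are not separate support. In deviations from the group means, same-number SFZ and DZ libraries correlated at 0.42, 0.78 and 0.65 for R3-cKO and at 0.58, 0.11 and -0.15 for R3-Cntl, where SFZ 3 went with DZ 2 (0.58) and SFZ 2 with DZ 3 (0.38).

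**Figure D3:**
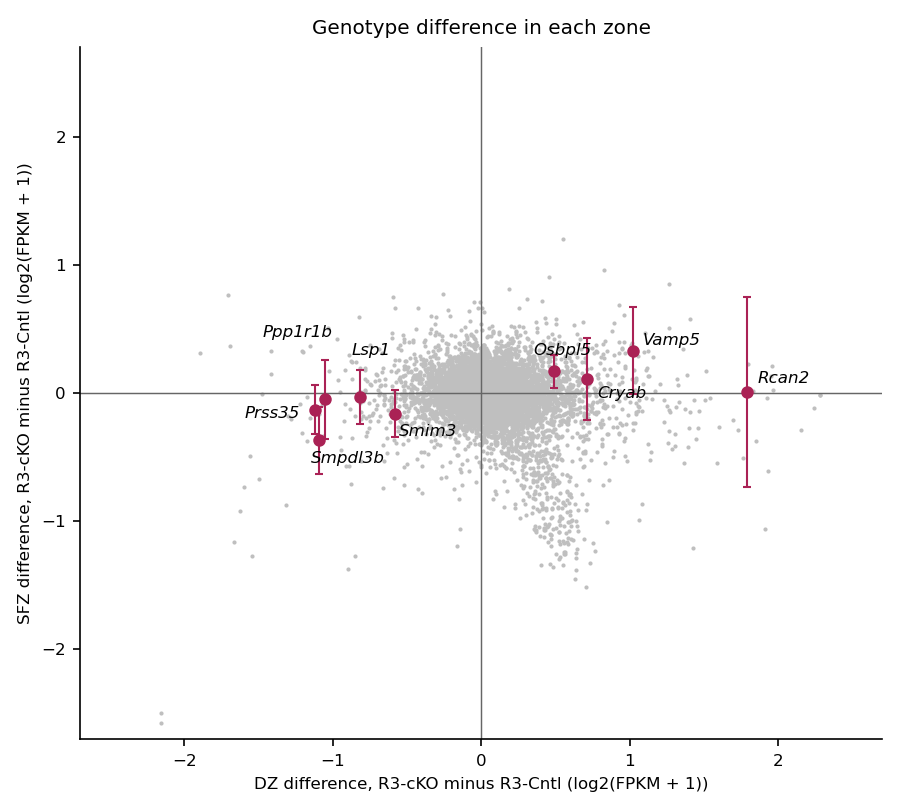
Difference between the libraries labelled R3-cKO and R3-Cntl in the DZ (horizontal) and the SFZ (vertical), both on log2(FPKM + 1), for 10953 genes tested in both zones (grey) and the 9 picked genes among them (red, with the SFZ standard error). The picked genes lie far out along the DZ axis, from -1.12 (Prss35) to 1.79 (Rcan2), and between -0.37 and 0.33 along the SFZ axis.

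Among the 891 DZ genes without overlap, the 10 were not the most separated by every measure. With the gap between the nearest libraries divided by the larger range within a genotype, Osbpl5 ranked 11, Smim3 12, Smpdl3b 23, Cryab 31, Ppp1r1b 35, Vamp5 37, Ptk2b 71, Lsp1 79, Prss35 113 and Rcan2 189. Ranked by the gap alone, Rcan2 was 1, Smpdl3b 7, Ppp1r1b 8 and Vamp5 10, while Osbpl5 was 46. The first 3 by the ratio were other genes, Slc39a8, a zinc transporter (1.15, 1.29 and 1.27 FPKM for R3-Cntl and 2.33, 2.31 and 2.29 FPKM for the libraries labelled R3-cKO), Scaf1, a splicing-associated factor, and Sfmbt1, a chromatin protein. The differences of Scaf1 (0.22) and Sfmbt1 (-0.15) were small, and their high rank came from ranges of 0.04 and 0.03 on the log2 scale.

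The 10 genes fell into 2 patterns when the DZ levels were set against the SFZ level of R3-Cntl. For Ppp1r1b, Prss35, Smim3, Cryab and Osbpl5, R3-Cntl DZ and SFZ libraries did not overlap, and the DZ mean of the libraries labelled R3-cKO lay nearer to the R3-Cntl SFZ mean. The distance on the log2(FPKM + 1) scale was 1.01 for R3-Cntl DZ and 0.04 for R3-cKO DZ in the case of Ppp1r1b, and 0.54 and 0.05 for Osbpl5. It was 0.48 and 0.09 for Smim3, 1.12 and 0.41 for Cryab, and 0.68 and 0.43 for Prss35. The R3-cKO DZ mean lay past the SFZ level for Prss35 and slightly so for Ppp1r1b and Smim3. Zone levels use the DZ libraries that chose the genes and carry no test.

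For the other 5, the zones overlapped in R3-Cntl, and the DZ libraries labelled R3-cKO lay farther from the SFZ level. The distance went from 0.45 to 1.54 for Smpdl3b, from 0.21 to 1.03 for Lsp1, from 0.17 to 1.19 for Vamp5, from 0.00 to 0.98 for Ptk2b and from 0.77 to 1.02 for Rcan2, which crossed from below to above. In the libraries labelled R3-cKO, DZ and SFZ did not overlap for any of these 5, nor for Osbpl5 of the first pattern. The share of all genes whose zones did not overlap is not given for either genotype. Zones without overlap are therefore not read as a trait of the 10 genes. Over all DZ genes tested, 66.3% had an R3-cKO DZ mean nearer to the R3-Cntl SFZ mean, and 69.4% of the 881 other separated genes did, against 5 of these 10.

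**Figure D4:**
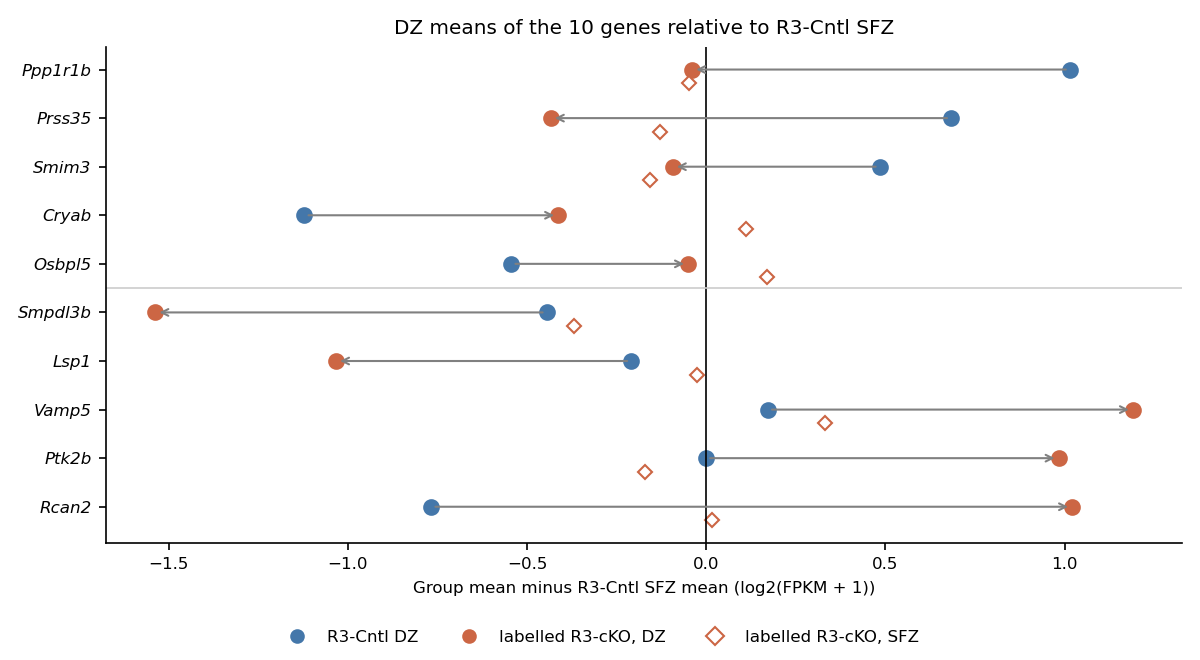
Mean of 3 libraries minus the R3-Cntl SFZ mean, on log2(FPKM + 1), for R3-Cntl DZ (blue), DZ libraries labelled R3-cKO (red, reached by the arrow) and SFZ libraries labelled R3-cKO (open diamonds). In the upper 5 genes the arrow ends nearer to 0 than it starts, and in the lower 5 farther away.

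Correlations over all 12 libraries, which share zone and genotype and are given as a description, were high for some of the genes. They include the DZ libraries that chose the genes, so their sign and size partly follow from the choice. No r among other separated DZ genes is given beside them. Ppp1r1b went with Smim3 (r = 0.94) and against Osbpl5 (-0.88) and Cryab (-0.86), and Osbpl5 went with Cryab (0.88) and against Smim3 (-0.92). Smpdl3b went with Lsp1 (0.94) and against Vamp5 (-0.88) and Ptk2b (-0.80). Between the 2 groups of 5, r ranged widely, from 0.48 for Cryab and Rcan2 and 0.47 for Smpdl3b and Prss35, through 0.03 for Smpdl3b and Osbpl5, to -0.63 for Rcan2 and Smim3 and -0.73 for Rcan2 and Ppp1r1b. Among all genes averaging 1 FPKM or more, the most alike was Mfap3 for Ppp1r1b (0.96), Lsp1 for Smpdl3b (0.94), Adipor2 for Lsp1 (0.95), Mvp for Osbpl5 (0.97) and Adra1d for Cryab (0.95). It was Ppp1r1b for Smim3 (0.94), Col4a5 for Rcan2 (0.95), Arhgap31 for Ptk2b (0.94), Pappa for Vamp5 (0.91) and Ufl1 for Prss35 (0.85).

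In their GO annotation the genes shared little. Plasma membrane and extracellular exosome were each annotated to Smpdl3b, Vamp5, Cryab and Lsp1, 4 of the 10, beside 16.2% and 14.3% of the 15192 annotated genes. Cytoplasm was annotated to Ppp1r1b, Cryab and Rcan2 (25.8% of the annotated genes), nucleus to Ppp1r1b, Cryab and Ptk2b (27.9%) and integral component of membrane to Vamp5, Osbpl5 and Smim3 (23.3%), 3 of the 10 each.

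Markers of other cell types and states are given for the DZ, where none passed adjustment. The smooth muscle and pericyte list summed to 110.9, 250.1 and 166.9 FPKM for R3-Cntl DZ libraries and 447.3, 614.4 and 268.9 FPKM for those labelled R3-cKO, and 2 of its 7 tested genes had an unadjusted p under 0.05, with 5 under the replicate block. These were Acta2, smooth muscle actin and the most abundant (47.7, 147 and 70.3 against 302, 401 and 163 FPKM, log2 fold change 1.76), and Tagln, transgelin (6.77, 38.4 and 19.8 against 78.4, 126 and 34.1 FPKM, 1.93), each with a limma adjusted p of 0.999. The defining smooth muscle myosin Myh11 did not exceed 0.04 FPKM in the DZ. Skeletal muscle markers, given because Vamp5 and Cryab are used in muscle, summed to 26.6, 51.0 and 33.9 FPKM against 58.5, 117.6 and 39.4 FPKM. No gene of this list was called, with 1 lower and 2 higher under the block. Tpm2 was the most abundant (9.44, 34.1 and 25.7 against 45.2, 94.4 and 32.3 FPKM). Of the 22 genes, 17 were under 1 FPKM in every DZ library, and Ckm was at 0 in all 6. The part of these cells or states in the 10 genes was not tested.

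In the chondrocyte and osteoblast lists all DZ calls were lower genes, though not every gene or pair was lower. Chondrocyte markers summed to 39706, 24912 and 32025 FPKM for R3-Cntl DZ libraries and 26168, 17242 and 31206 FPKM for those labelled R3-cKO, led by Col2a1, which makes type II collagen (22791, 14219 and 17525 against 15594, 11248 and 17839 FPKM). Of 15 tested genes, Col11a2 (log2 fold change -0.69) and Hapln1 (-0.72), a collagen chain and a link protein of the matrix, had an unadjusted p under 0.05, and 9 were lower under the replicate block. Of 7 tested osteoblast markers, 4 had an unadjusted p under 0.05, all lower, and 5 under the block. They were Alpl, alkaline phosphatase (-1.63, and -0.92 in the SFZ), the osteocalcin genes Bglap (-1.32) and Bglap2 (-0.88), and the transcription factor Sp7 (-0.66, and -0.74 in the SFZ). The osteoblast sum, in which Spp1 was the most abundant DZ gene, was 397.5, 651.9 and 2018.5 FPKM against 388.5, 711.3 and 1281.9 FPKM. None of these genes passed adjustment (limma adjusted p from 0.999 to 1).

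Superficial zone markers summed to 14.8, 18.2 and 28.1 FPKM for R3-Cntl DZ libraries and 20.6, 23.7 and 16.7 FPKM for those labelled R3-cKO, with 0 of 7 tested genes at an unadjusted p under 0.05 and 1 lower under the replicate block. In the SFZ, Prg4, which encodes lubricin, was lower (22.2, 8.38 and 7.13 against 6.95, 2.47 and 2.13 FPKM, log2 fold change -1.45, limma unadjusted p = 0.0307 and adjusted p = 1). Dissociation and stress genes had 0 of 15 calls in the DZ with a median of 0.3, and 1 lower and 6 higher genes under the block. Tendon (7 tested in the DZ), endothelial (2), neural (3), adipocyte (3) and osteoclast (2) markers had 0 calls in either zone. Under the DZ replicate block, tendon had 1 lower and 2 higher, adipocytes 1 higher and osteoclasts 1 lower. No erythroid marker passed the filter, their sum staying at or below 0.3 FPKM. Keratinocyte markers summed to 10.5, 12.5 and 12.1 FPKM for R3-Cntl DZ libraries and 18.5, 22.9 and 18.4 FPKM for those labelled R3-cKO. Of the 11 markers, 7 were under 1 FPKM in every DZ library and 3 were tested. Groups did not overlap for 2 of these 3, beside 2.78% (lower) and 5.26% (higher) of all tested DZ genes. Of the 3 tested, 1 was called, the most abundant and an epithelial membrane gene, Perp. It was higher in the DZ (log2 fold change 0.82) and in the SFZ (0.96), where its groups overlapped. Krt5 and Krt14 did not exceed 0.13 FPKM in any library.

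**Figure D5:**
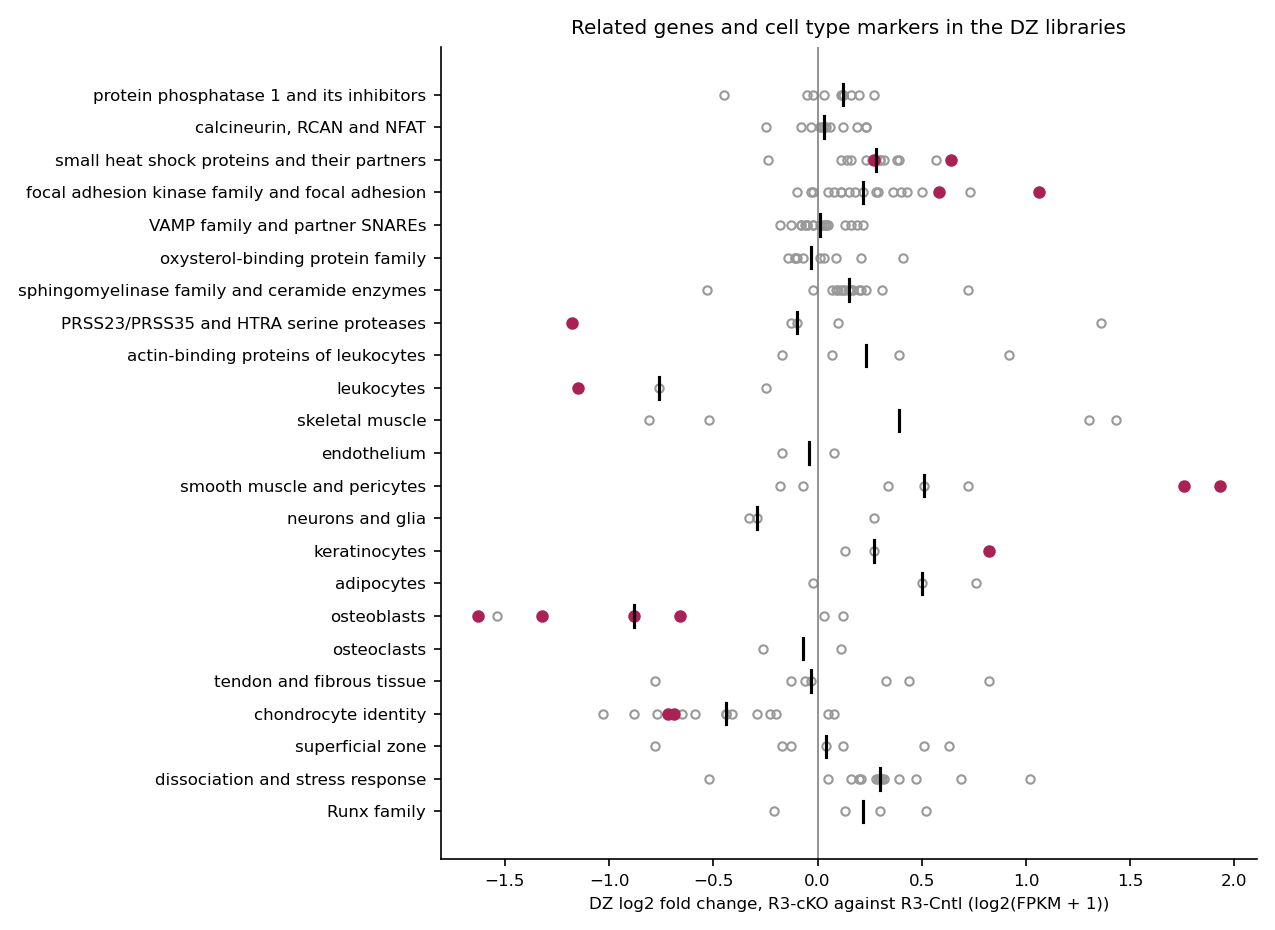
DZ log2 fold change of the libraries labelled R3-cKO against R3-Cntl on log2(FPKM + 1) for the tested genes of each list (circles) without the 10 picked genes, with the median as a bar and genes with an unadjusted p under 0.05 filled in red. Smooth muscle, focal adhesion and heat shock genes lie mostly to the right and osteoblast and chondrocyte genes mostly to the left, while the VAMP, oxysterol-binding and calcineurin families centre near 0. Of all 11091 tested DZ genes, 6910 were higher and 4181 lower.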

How the data were processed

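RNA-seq values of 12 libraries (3 for each genotype and zone) were analysed. The authors sequenced 100-bp paired-end reads and mapped them to mm9, and their processing notes name Bowtie 0.12.2. The table deposited by the authors was scaled with TMM, and its values depend on gene length and add up per library (392241 to 429213) in the way of FPKM, which is how they were read because no unit is given. Read depth is unknown, and without counts the error was taken from the scatter of the libraries. Each column was assigned to a library by name, and 0 were left over.

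Values were analysed as log2(FPKM + 1) in R 4.3.3 with limma 3.58.1 (mean-variance trend, genotype as the only term, Benjamini-Hochberg adjustment), tested on simulated data, and in Python 3.11.15 with pandas 2.3.3, NumPy 2.4.6, SciPy 1.17.1 (exact permutation tests) and matplotlib 3.10.9. Alternatives were other filters, pseudocounts and normalizations, a replicate block, a single model of all 12 libraries and leaving out each library. The 10 genes and the lists were chosen with earlier results of these data known. Named genes are the 10, the Runx family, Y-linked genes, list genes with an unadjusted p under 0.05 or otherwise at most the 3 most abundant, the gene most alike to each of the 10, and the 3 other genes with the largest separation. Other relatives, neighbours and markers named beside them were chosen after their values were seen.

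DZ libraries of the same number deviated together from their group means (r = 0.65, 0.78 and 0.69 over 11359 genes), and the study names littermates, so DZ numbers were read as pairs. All other DZ values were below 0. Deviations from a group mean add up to 0, so positive values for the same number push the others down, and these add nothing to the pairing. SFZ numbers did not all deviate together and were not read as pairs. Positions are from GENCODE vM1 on mm9.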

Additional observations from a re-analysis of the deposited data

How the results depend on the processing

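The DZ differences of the 10 genes, which carry no test, kept their direction under every alternative that gave a value, which the choice of separated genes fixed for the left-out libraries and for single pairs. Of their values, 137 moved by less than the spread between libraries and 11 by more, 5 of them with a pseudocount of 5 (Smpdl3b, Vamp5, Ptk2b, Osbpl5 and Smim3) and 4 in the pair of number 1 alone, an alternative chosen after seeing the data. In the SFZ, 112 values for single genes were unchanged in direction and call, 12 turned and 1 gained an unadjusted p under 0.05. The filter on a mean of 10 FPKM removed Smpdl3b and Ptk2b in the DZ and Vamp5 and Ptk2b in the SFZ, which have no value there. With a pseudocount of 5 the SFZ difference of Rcan2 was -0.07.

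Leaving out each library gave SFZ ranges of -0.22 to 0.28 for Ppp1r1b, -0.12 to 0.39 for Cryab, -0.25 to 0.11 for Lsp1, -0.32 to 0.00 for Smim3, -0.77 to 0.65 for Rcan2, -0.62 to -0.17 for Smpdl3b, -0.29 to 0.00 for Prss35, 0.04 to 0.63 for Vamp5 and 0.07 to 0.23 for Osbpl5. Of the 10 genes, 0 to 3 had SFZ groups apart and 0 to 1 had an unadjusted p under 0.05 (Smpdl3b, without R3-Cntl replicate 3). Groups separate more easily with a library left out, and the share of all genes that did so is not given. The cause of these changes was not tested.

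Over all genes, the 34 SFZ genes with an unadjusted p under 0.05 became 143 without a filter, 15 under a filter on a mean of 10 FPKM and 54 with quantile normalization, and 12 to 1204 when a library was left out. The 404 DZ genes became 696 without a filter and 184 under the filter at 10 FPKM, as more or fewer genes were tested, and 211 to 773 when a library was left out. With the replicate number as a block, which the DZ pairing allows, they became 1830. In the DZ lists the block moved no count beyond those given in the report. SFZ libraries share only a number: same-number correlations were 0.79, -0.09 and -0.42, while R3-Cntl 3 went with R3-cKO 2 (0.69) and R3-Cntl 2 with R3-cKO 3 (0.45), so not every library correlated best with its own number. No other pairing was run. The SFZ count went from 34 to 51 with the block, and the adjusted count stayed at 0 in both zones. The cause of these shifts was not tested.

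Depth is unknown, so low values such as those of Ptk2b have an unknown counting error. With 3 libraries per group, small SFZ differences would be missed. The Y-linked transcripts follow genotype outside pair 1, and the part of sex in these genes was not tested.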
